A study of Homo sapiens with 12 samples.

Results

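The proteasome is the large protease that degrades ubiquitin-tagged proteins, and its subunits are encoded by genes whose symbols begin with PSM. The genes described here are its constitutive subunits, the factors that assemble them and the proteins that bind the open ends of its core. They were taken by symbol from the table the authors deposited: PSMA, PSMB, PSMC, PSMD, PSMF or PSMG with a number, plus PSME3 and PSME4, and without the immunoproteasome subunits PSMB8, PSMB9 and PSMB10. This gave 43 genes of 59276 listed features. Total RNA was sequenced from MM1S, a human multiple myeloma cell line, in 12 libraries. There were 3 libraries labelled day 0 and 3 each after 2, 3 and 5 days with NGI-1, an inhibitor of the oligosaccharyltransferase (OST) complex, the enzyme that attaches N-linked glycans to proteins. The dose stated in the study's methods was 10 µM. In the labels the day 0 libraries carry the treatment NGI-1 as well, but the study calls these cells untreated, and they are called untreated here. All libraries came from 1 cell line, untreated cells of later days were not labelled, and the labels name no separate cultures, so p-values measure only the spread between these libraries, which may be technical.

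Each value is a TPM, a length-corrected share of the transcripts in a library, so levels can be compared between genes. It keeps no read count, so its counting error is unknown. Sequencing depth is given in the labels as over 60 M read pairs per sample. A TPM is also relative: the ribosomal protein genes took 28.1% to 29.2% of the TPM in the untreated libraries and 47.5% to 49.1% at day 5, and mitochondrially encoded transcripts went from 9.33% to 10.7% up to 13.4% to 14.7%. The median log2 fold change against day 0 over all tested features was below 0, at -0.18 at day 2, -0.73 at day 3 and -0.99 at day 5. Values are given on the deposited scale unless a sentence says that they were rescaled. For rescaling, each library was divided by 1 factor that put its median feature level with the mean of all libraries. Replicate 2 of day 3 and replicate 3 of day 5 had the lowest ribosomal protein share of their groups, at 40.2% and 47.5%. In bulk RNA, fewer cells of a type and less RNA per cell cannot be told apart. All 10 plasma cell markers examined were expressed, with summed levels of 12149.5 to 14301 TPM in untreated libraries and 19971 to 21264 TPM at day 5. Single markers did not follow this sum. By the calls defined below, 6 of the 10 were lower and 2 higher at day 5, against 69.8% and 7.73% of all tested features. Their median log2 fold change was -1.08. After rescaling 2 were lower and 4 higher, against 26.9% and 27.5%. No list of T and NK cell, monocyte, erythroid or epithelial and stromal markers summed to more than 8.22 TPM in any library.

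The 20S core is a barrel of 4 stacked rings. The outer rings are built of alpha subunits (PSMA1 to PSMA7), whose ends form the gate through which substrates enter, and the inner rings of beta subunits (PSMB1 to PSMB7), of which PSMB5, PSMB6 and PSMB7 carry the protease sites. The 19S cap sits on the barrel: its base holds 6 ATPases (PSMC1 to PSMC6) that unfold substrates and feed them in, and its lid holds the enzyme that removes ubiquitin. Each part is put together with the help of dedicated chaperones. Plasma cells secrete large amounts of immunoglobulin and are known for their dependence on the proteasome, and the PSMB5 site is the main target of the myeloma drug bortezomib.

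Of the 43 genes, 41 passed the filter of at least 1 TPM in at least 3 libraries and were tested. The other two were PSMA8, a testis form of an alpha subunit, whose highest level was 0.0477 TPM in 1 library, and PSMB11, a thymus form of a beta subunit, which was listed at 0 in every library. No gene passed the filter through 1 group alone, since the lowest value of any of the 41 in any library was 2.24 TPM, that of PSMD5 at day 5. In untreated cells the tested genes ranged from 10.5 TPM (PSMD5, a chaperone) to 855 TPM (PSMB4, a beta subunit). The lowest of the 7 alpha and 7 beta subunits there was PSMA5, at 76.2 TPM.

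On the deposited scale most of these genes fell and 2 rose by day 5, and after rescaling 14 fell and 8 rose. A gene was called when limma's Benjamini-Hochberg adjusted p was under 0.05 and its log2 fold change on the log2(TPM + 1) scale was over 0.5 in size. At day 2, 28 of the 41 tested genes were called lower, against 23.2% of all 11939 tested features, and 0 were called higher, against 8.04%. At day 3, 33 were lower, against 61.5% of all features, and 0 were higher, against 7.59%. By day 5, 34 were lower, against 69.8%, and 2 were higher, against 7.73%. The median log2 fold change of the 41 genes was -0.60, -1.14 and -1.57 on the 3 days, below that of all tested features each time. Except for the 5 genes whose day 5 libraries all lay above the untreated ones (PSMA2, PSMA4, PSMA6, PSMC6 and PSMG4), every tested gene had all 3 day 5 libraries below the 3 untreated libraries. How many of all tested features separated in this way was not counted, so this is not shown to be particular to these genes. After rescaling, 12 genes were lower and 0 higher at day 2 (all features: 11.4% and 12.9%), 15 lower and 7 higher at day 3 (24.2% and 23.9%), and 14 lower and 8 higher at day 5 (26.9% and 27.5%). On days 0, 2, 3 and 5 the summed TPM of the tested genes was 6618 ± 133, 4317 ± 34.9, 3474 ± 72.8 and 3112 ± 110.4 (SD, n = 3 each). After rescaling, the means of this sum were 4416, 3386, 4237 and 4872 on the 4 days in order, so a lower sum at day 5 than at day 0 was seen on the deposited scale and not on the rescaled one. With any 1 library left out, 33 or 34 genes were lower and 2 higher at day 5.

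**Figure D1:**
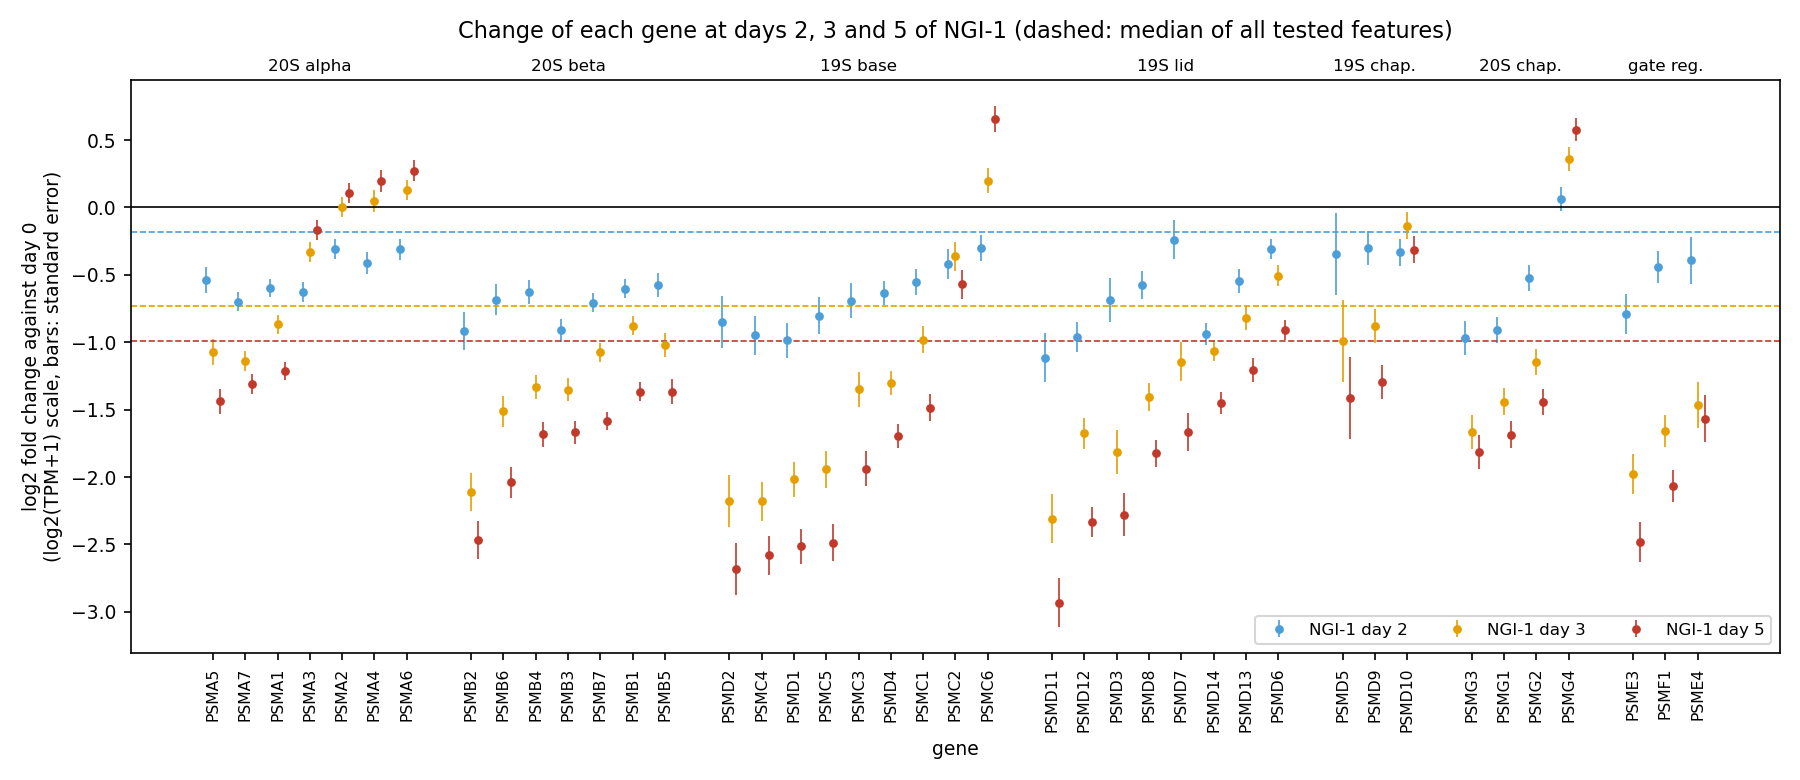
Log2 fold change against day 0 of the same 41 genes at days 2, 3 and 5 on the log2(TPM + 1) scale, with the standard error of the limma fit as bars. Dashed lines mark the median of all 11939 tested features on each day; at day 5 the genes run from -2.93 (PSMD11) to 0.66 (PSMC6).

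The alpha ring of the 20S core separated into a group that fell and a group that was not called lower at day 5. At day 5, PSMA1, PSMA5 and PSMA7 were lower and the other 4 of the 7 were not called in either direction, against 69.8% of all features called lower. PSMA5 had the largest fall, with 71.2, 77.6 and 79.8 TPM in the untreated libraries and 30.5, 24.2 and 28.05 TPM at day 5. These groups did not overlap, and limma's fit gave -1.44 on the log2 scale (standard error 0.0949, adjusted p = 7.28e-09). PSMA7, the most abundant alpha subunit beside PSMA4 in untreated cells, went from 364 ± 20.4 to 146 ± 6.05 TPM (SD, n = 3), which was 40.1% of its untreated mean. PSMA1 went from 194 ± 3.07 to 83.2 ± 1.001 TPM, or 42.8%.

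At the other end of the ring was PSMA6, with 233, 241 and 243 TPM in untreated cells, 201, 177 and 201 TPM at day 2, 269, 241 and 276 TPM at day 3 and 290.1, 299 and 280.0 TPM at day 5. It lay below all untreated libraries at day 2 and above all untreated libraries at day 5, but the log2 fold change of 0.27 (standard error 0.0758, adjusted p = 0.00395, limma) was under the size required. PSMA4 followed the same course, with means of 368, 278, 381 and 423 TPM on the 4 days, and became the most abundant of all 41 genes at day 5. PSMA2 had 224 ± 5.07 TPM in untreated cells and 242 ± 11.8 TPM at day 5, a difference of 0.11 on the log2 scale (standard error 0.0739). PSMA3 was lower at day 2, at 64.7% of its untreated mean, and stood at 88.9% at day 5. After rescaling, these 4 subunits were all called higher at day 5, by 1.33, 1.05, 1.42 and 1.496 on the log2 scale for PSMA2, PSMA3, PSMA4 and PSMA6, while PSMA1, PSMA5 and PSMA7 were at 0.0031, -0.24 and -0.089 and not called. Of all features, 27.5% were higher and 26.9% lower after rescaling.

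The division within the ring does not depend on how libraries are scaled. PSMA2, PSMA3, PSMA4 and PSMA6 together, a grouping made after their values were seen, held 63.4% ± 0.780, 67.1% ± 2.41, 77.9% ± 1.52 and 82.3% ± 0.350 of the alpha subunit TPM on days 0, 2, 3 and 5 (SD, n = 3 each). The ratio of their geometric mean to that of PSMA1, PSMA5 and PSMA7 was 1.502 to 1.577 in untreated libraries and 4.07 to 4.33 at day 5. A complete ring holds each alpha subunit once.

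On the deposited scale the beta ring fell as a whole. All 7 tested beta subunits were lower on each of the 3 days (all features: 23.2%, 61.5% and 69.8%), with a median log2 fold change of -0.69 at day 2, -1.33 at day 3 and -1.67 at day 5. PSMB5, the chymotrypsin-like site and the main target of bortezomib, had 88.4, 78.4 and 85.7 TPM in untreated cells, 57.3, 59.1 and 52.2 TPM at day 2, 39.5, 41.2 and 41.9 TPM at day 3 and 28.96, 32.9 and 34.4 TPM at day 5. No library of a treated day overlapped the untreated ones. The log2 fold changes were -0.57, -1.02 and -1.37 (standard error 0.0907, adjusted p = 7.78e-09 at day 5, limma), which was 38.1% of the untreated mean. PSMB5 and PSMB1, a subunit without a protease site, had the smallest falls of the ring, and both were at -1.37 when rounded.

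The other two protease sites fell further on the same scale. PSMB6, the caspase-like site, had 163, 132 and 139 TPM in untreated cells and 29.8, 37.1 and 36.6 TPM at day 5, a log2 fold change of -2.04 (standard error 0.115, adjusted p = 1.63e-09, limma). PSMB7, the trypsin-like site, had 190.2, 181 and 187 TPM and then 61.2, 59.1 and 63.9 TPM, a log2 fold change of -1.58 (standard error 0.0694, adjusted p = 1.47e-10). The lowest member of the ring was PSMB2, another subunit without a protease site. It had 78.5, 77.7 and 72.6 TPM in untreated cells, 38.7, 41.8 and 39.4 TPM at day 2, 16.2, 20.9 and 14.2 TPM at day 3 and 10.99, 12.3 and 15.9 TPM at day 5, and its log2 fold change at day 5 was -2.47 (standard error 0.141, adjusted p = 1.81e-09). PSMB4, the most abundant of the 41 genes in untreated cells, went from 855 ± 43.6 to 266 ± 26.6 TPM (SD, n = 3). After rescaling, PSMB2 and PSMB6 were the members of the ring that stayed lower at day 5, at -1.29 and -0.83, against 26.9% of all features. The other 5 lay between -0.46 and -0.15 without a call, with PSMB5 at -0.16.

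The base of the 19S cap held the largest rise of all 41 genes. Of its 9 genes, 8 were lower at day 5 and 1, PSMC6, was higher, against 69.8% and 7.73% of all features; after rescaling 5 were lower and 2 higher, against 26.9% and 27.5%. PSMD2, a scaffold of the base and a docking site for ubiquitin-like proteins, had 139.8, 133 and 133 TPM in untreated cells and 15.3, 19.01 and 28.4 TPM at day 5, a log2 fold change of -2.68 (standard error 0.195, adjusted p = 1.83e-08, limma). PSMD1, the other scaffold, fell to 16.6% of its untreated mean, and the ATPases PSMC4 and PSMC5 to 16.4% and 17.6%. The ATPases PSMC3 and PSMC1 fell to 26.2% and 35.4%, and PSMD4, a ubiquitin receptor, to 30.8%. PSMC3, PSMC4, PSMC5, PSMD1 and PSMD2 were lower at day 5 after rescaling as well, while PSMC1 and PSMD4, at -0.27 and -0.48, were not called.

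PSMC6 went the other way. Its libraries held 106, 118 and 124 TPM in untreated cells, 96.1, 86.1 and 100.2 TPM at day 2, 138, 119 and 144 TPM at day 3 and 192, 171 and 187 TPM at day 5. All libraries of day 2 were below and all of day 5 above the untreated ones, while day 3 overlapped them. The log2 fold change was -0.30 at day 2 (adjusted p = 0.0201, under the size required), 0.20 at day 3 (adjusted p = 0.0674) and 0.66 at day 5 (standard error 0.0948, adjusted p = 1.70e-05, limma). Within a library, PSMC6 stood at 0.614 to 0.736 times the geometric mean of the other 5 ATPases in untreated cells and at 3.45 to 4.44 times at day 5. In the assembled ring the 6 ATPases occur in equal numbers. PSMC6 had the lowest mean of the 6 in untreated cells and the highest at day 5.

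PSMC2, a further ATPase, had 134, 129.7 and 127 TPM in untreated cells and 104, 84.1 and 76.5 TPM at day 5. Its 3 day 5 libraries lay below the untreated ones and spread more widely. The call depended on the scale: the log2 fold change was -0.57 on the deposited scale (standard error 0.109, adjusted p = 2.33e-04, limma), a call lower, and 0.65 after rescaling, a call higher. It was the 1 gene of the 41 with opposite calls, and without replicate 3 of day 5 the deposited value was -0.47 and no longer called.

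**Figure D2:**
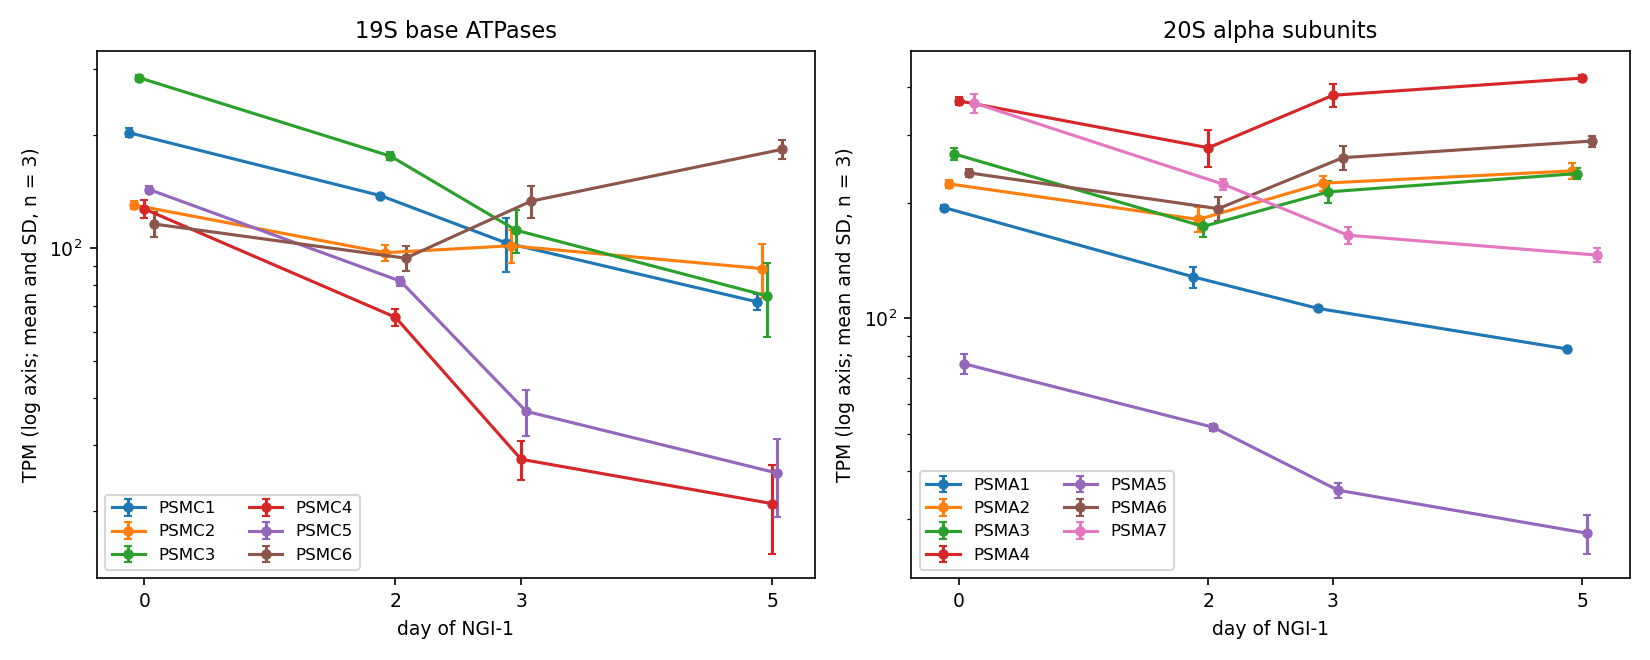
TPM (log axis) of the 6 ATPases of the 19S base (left) and the 7 tested alpha subunits of the 20S core (right) against the day of NGI-1; points are means and bars SDs of 3 libraries. PSMC6 ends highest among the ATPases at 184 TPM, and PSMA2, PSMA3, PSMA4 and PSMA6 end at 238 to 423 TPM while PSMA1, PSMA5 and PSMA7 end at 27.6 to 146 TPM.

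The lid is described here by its 8 PSMD genes, without its small subunit SEM1, whose values are given with the neighbouring genes. On the deposited scale 6 of the 8 were lower at day 2, against 23.2% of all features, and all 8 at day 3 and day 5, against 61.5% and 69.8%, with a median log2 fold change of -1.74 at day 5. After rescaling, 4 of the 8 were lower at day 5, against 26.9% of all features. PSMD11, a lid subunit that contacts the core, had the largest fall of all 41 genes. It had 104, 99.1 and 104 TPM in untreated cells, 42.4, 49.4 and 48.9 TPM at day 2, 17.8, 22.7 and 19.4 TPM at day 3 and 8.58, 13.2 and 17.3 TPM at day 5. Each group lay below the one before it, and the day 5 mean was 12.7% of the untreated one (log2 fold change -2.93, standard error 0.179, adjusted p = 3.40e-09, limma). PSMD6 had the smallest fall of the 8, from 102, 104 and 104 TPM to 54.5, 52.3 and 56.6 TPM, a log2 fold change of -0.91 (standard error 0.0765, adjusted p = 7.78e-08). Its call at day 3, at -0.51, was lost without replicate 2 of the untreated group, or replicate 2 or 3 of day 3, with values of -0.48 to -0.50.

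PSMD14, the enzyme that cuts ubiquitin from substrates, had most of its fall by day 2: 133, 141 and 134 TPM in untreated cells, 73.6, 66.9 and 70.9 TPM at day 2, 66.03, 60.4 and 67.6 TPM at day 3 and 51.5, 46.98 and 48.8 TPM at day 5. PSMD7, its partner in the lid, had its fall later, with 85.05, 74.3 and 77.9 TPM, 64.1, 73.01 and 63.7 TPM, 34.1, 40.1 and 31.9 TPM and 19.7, 23.03 and 31.1 TPM on the 4 days. At day 2 the log2 fold change was -0.94 for PSMD14 (adjusted p = 7.34e-07, limma) and -0.24 for PSMD7 (adjusted p = 0.189). By day 5 both were lower, at -1.45 and -1.67. The difference between these 2 genes was not tested. After rescaling, PSMD14 was called lower at day 2 against day 0 and higher at day 3 against day 2, so its course depended on the scale. Of the rest, PSMD12 and PSMD3 fell to 19.2% and 20.1% of their untreated means at day 5, PSMD8 to 27.9% and PSMD13 from 141 to 60.7 TPM. PSMD3, PSMD8, PSMD11 and PSMD12 were also lower after rescaling at day 5, while PSMD6 and PSMD13 turned to 0.30 and 0.004, and PSMD7 and PSMD14 were at -0.47 and -0.24, all 4 without a call.

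Among the chaperones of the 19S base, PSMD5 and PSMD9 were lower at day 5 and PSMD10 was not called. PSMD5, at 10.6, 8.01 and 13.1 TPM in untreated cells and 2.24, 2.91 and 5.11 TPM at day 5, had the lowest level and the largest standard error of the 41 genes, with a log2 fold change of -1.41 (standard error 0.304, adjusted p = 6.14e-04, limma). PSMD9 went from 57.97 ± 9.05 to 23.04 ± 3.25 TPM (SD, n = 3). PSMD10, also known as gankyrin, had 21.5, 22.8 and 21.3 TPM and then 18.9, 16.9 and 16.53 TPM, a log2 fold change of -0.31 (standard error 0.101, adjusted p = 0.0101), under the size required. After rescaling PSMD10 was at 0.85 and called higher, and PSMD5 and PSMD9, at -0.39 and -0.10, were no longer called.

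The chaperones of the 20S core work as pairs, PSMG1 with PSMG2 and PSMG3 with PSMG4, on the forming alpha ring. PSMG1 and PSMG2 fell to 30.2% and 35.8% of their untreated means at day 5, and after rescaling neither was called, at -0.49 and -0.25. The second pair moved in opposite directions. PSMG3 had 24.9, 24.7 and 22.6 TPM in untreated cells and 5.07, 6.44 and 6.97 TPM at day 5, a log2 fold change of -1.81 (standard error 0.129, adjusted p = 1.50e-08, limma). PSMG4 had 21.5, 20.6 and 23.6 TPM in untreated cells, 22.95, 21.99 and 23.8 TPM at day 2, 27.5, 28.04 and 29.5 TPM at day 3 and 33.9, 32.6 and 32.9 TPM at day 5. It overlapped the untreated libraries at day 2, lay above them from day 3 on, and was called higher at day 5 with 0.58 (standard error 0.0866, adjusted p = 2.48e-05). The partners were near equal in untreated cells, at 24.04 and 21.9 TPM, and stood at 6.16 and 33.1 TPM at day 5. After rescaling PSMG3 was still called lower, at -0.69, and PSMG4 higher, at 1.76.

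The genes of the proteins that bind the gate of the core were all lower at day 5, against 69.8% of all features. PSME3, a nuclear activator of the core, had 118, 98.8 and 104 TPM in untreated cells and 15.9, 17.2 and 22.1 TPM at day 5, a log2 fold change of -2.48 (standard error 0.146, adjusted p = 2.34e-09, limma). PSMF1, named for its inhibition of the core, had 62.2, 64.6 and 60.8 TPM and 12.6, 14.2 and 15.7 TPM, with -2.07 on the log2 scale. PSME4, the single-chain activator PA200, had 22.7, 21.9 and 17.97 TPM and 5.27, 5.89 and 8.19 TPM, with -1.57 (standard error 0.174, adjusted p = 1.23e-06). PSME3 and PSMF1 stayed lower after rescaling, at -1.29 and -0.89, against 26.9% of all features, and PSME4 did not, at -0.45.

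Ratios within a library are free of library scaling and show how the balance of the subcomplexes moved. The mean log2 TPM of the alpha subunits exceeded that of the beta subunits by 0.29 ± 0.102, 0.51 ± 0.0922, 1.16 ± 0.141 and 1.54 ± 0.137 on days 0, 2, 3 and 5 (SD, n = 3 each). From day 2 on, every treated library lay above every untreated one. The 20S core exceeded the 19S cap by 0.58 ± 0.00568, 0.66 ± 0.0149, 1.04 ± 0.0709 and 1.24 ± 0.157 on the same 4 days. Over the genes used here, base and lid kept the same distance up to day 3. The base was ahead by 0.52 ± 0.0180, 0.50 ± 0.0258 and 0.52 ± 0.0448, and by 0.65 ± 0.0896 at day 5. Summed TPM of the alpha subunits was 1735 ± 49.2 in untreated cells and 1449.8 ± 10.96 at day 5, while that of the beta subunits went from 1803 ± 89.2 to 562 ± 42.5, that of the base from 1667 ± 14.8 to 637 ± 49.8 and that of the lid from 945 ± 24.02 to 294 ± 27.6 (SD, n = 3 each). The values of the lid and the 19S cap leave out SEM1, and those of the base and the cap leave out ADRM1. SEM1 rose and ADRM1 fell, as given with the neighbouring genes, so with SEM1 the lid sum would fall less. The difference between base and lid was not computed with both genes included. Its rise at day 5 is thus shown only for the genes used here and may not hold for the full base and lid. No test was made of these sums and ratios, since the genes were chosen with results of these data known.

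The subunits of a subcomplex also spread apart. The SD of log2 TPM over the alpha subunits was 0.769 ± 0.0153 in untreated libraries (mean and SD of 3 libraries), 0.788 ± 0.0459 at day 2, 1.12 ± 0.0461 at day 3 and 1.34 ± 0.0504 at day 5. Over the base without ADRM1 it went from 0.781 ± 0.00808 to 1.40 ± 0.141, and over the lid without SEM1 from 0.477 ± 0.0219 to 0.950 ± 0.172. SEM1 rose, as given with the neighbouring genes, and the spread of the lid with SEM1 was not computed. The beta ring, already uneven in untreated cells through PSMB4, moved least, from 1.18 ± 0.0152 to 1.37 ± 0.0483. The gene lists of other complexes widened too. The CCT chaperonin, which folds actin and tubulin, went from 0.639 ± 0.00936 to 1.05 ± 0.117. The translation initiation complex eIF3 went from 0.861 ± 0.00479 to 1.60 ± 0.0927, and the COP9 signalosome, a relative of the 19S lid, from 1.503 ± 0.0490 to 1.94 ± 0.107. The widening was thus measured in all 3 comparison complexes as well and not in the proteasome alone. Not every set widened. Over the 3 regulators of the 20S gate the SD went from 1.20 ± 0.0884 to 0.798 ± 0.0616. Over PSMB8, PSMB9, PSMB10, PSME1 and PSME2 it went from 1.64 ± 0.0803 to 1.40 ± 0.0777.

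Between days 2 and 3, the test called 22 genes lower and 0 higher, against 55.5% and 3.22% of all features; PSMD2 had the largest fall, at -1.33 (standard error 0.195, adjusted p = 6.42e-05, limma). After rescaling there were 8 lower and 9 higher, against 13.6% and 14.3%. From day 3 to day 5, 9 were lower and 0 higher on the deposited scale, against 13.1% and 0.670%, and 0 lower and 5 higher after rescaling, against 2.03% and 4.43%. The deposited count of 9 was 2 without replicate 2 of day 3 or without replicate 1 of day 5, and 14 without replicate 3 of day 5. The largest fall in this step was in PSMD12, at -0.66 (adjusted p = 0.00136). PSMC6 went from 134 to 184 TPM, and its log2 change of 0.46 (adjusted p = 0.00416) was under the size required. The comparisons with day 0 share the untreated libraries. A direct comparison of day 5 with day 2, added after the data were seen, called 33 genes lower and 4 higher, against 69.8% and 4.35% of all features, and after rescaling 9 lower and 8 higher, against 18.1% (2159) and 2265 of the 11939 features. On the deposited scale the 4 were PSMA4, PSMA6, PSMC6 and PSMG4, at 0.61, 0.59, 0.96 and 0.51.

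The genes lie on many chromosomes. On GRCh38 in GENCODE 29, PSMC6 spans chr14:52707172-52728587, PSMA6 chr14:35292357-35317474 and PSMB5 chr14:23025851-23035145, 3 genes of chromosome 14 with different courses. PSMD11 spans chr17:32444261-32483318, PSMD3 chr17:39980797-39997960 and PSMG4 chr6:3258894-3268049. Promoters were looked at because proteasome genes are known to be driven together by the transcription factors NFE2L1 and NFE2L2 through the antioxidant response element, whose core was searched as TGACNNNGC, and by NFY through CCAAT, both on either strand. Matches of each motif were counted without regard to the other. RefSeq on GRCh38.p14 gave windows of 250 bases before to 50 after the start, and 35 of the 41 tested genes had 43 windows; PSMA7, PSMB1, PSMB6, PSMB7, PSMD4 and PSMG3 had no entry. The element core occurred in 12 of the 43 windows (27.9%), against 14.9% of the promoters of all tested features and 13.3% of all promoters. CCAAT occurred in 18 (41.9%), against 35.5% and 34.6%. A match is a description of letters and not a bound site.

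Of the 12 genes with the element core, 11 were lower at day 5 and 0 higher, with a median log2 fold change of -1.68; PSMA4 was the exception. Of the 23 matched genes without it, 17 were lower and 2 higher, with a median of -1.44, and of all features 69.8% were lower and 7.73% higher. After rescaling, 5 of the 12 were lower and 1 higher, and 7 of the 23 were lower and 7 higher, against 26.9% and 27.5%. Windows are shown for the genes called higher, PSMC6 and PSMG4, for PSMD11, which had the largest fall, and for PSMD3, which fell and held both motifs. Capitals mark the motif matches, on either strand. All 4 windows are on the plus strand, at chr14:52706950-52707249, chr6:3258697-3258996, chr17:32444260-32444559 and chr17:39980557-39980856 in the order given.
PSMC6: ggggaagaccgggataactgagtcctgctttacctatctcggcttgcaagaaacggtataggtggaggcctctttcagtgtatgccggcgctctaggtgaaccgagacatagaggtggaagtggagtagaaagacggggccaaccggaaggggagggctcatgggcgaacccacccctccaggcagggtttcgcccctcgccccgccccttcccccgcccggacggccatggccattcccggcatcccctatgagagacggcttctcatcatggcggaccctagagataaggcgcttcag
PSMG4: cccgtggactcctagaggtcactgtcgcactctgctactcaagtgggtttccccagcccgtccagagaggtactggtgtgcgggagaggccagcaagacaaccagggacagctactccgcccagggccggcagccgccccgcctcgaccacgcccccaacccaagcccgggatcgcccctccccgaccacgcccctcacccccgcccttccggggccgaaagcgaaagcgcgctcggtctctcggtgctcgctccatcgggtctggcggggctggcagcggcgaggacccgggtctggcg
PSMD11: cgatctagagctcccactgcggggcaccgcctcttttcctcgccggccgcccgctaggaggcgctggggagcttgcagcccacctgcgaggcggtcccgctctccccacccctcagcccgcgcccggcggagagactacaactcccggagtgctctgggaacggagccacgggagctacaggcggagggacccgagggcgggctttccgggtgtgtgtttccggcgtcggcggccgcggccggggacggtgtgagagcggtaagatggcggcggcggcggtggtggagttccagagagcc
PSMD3: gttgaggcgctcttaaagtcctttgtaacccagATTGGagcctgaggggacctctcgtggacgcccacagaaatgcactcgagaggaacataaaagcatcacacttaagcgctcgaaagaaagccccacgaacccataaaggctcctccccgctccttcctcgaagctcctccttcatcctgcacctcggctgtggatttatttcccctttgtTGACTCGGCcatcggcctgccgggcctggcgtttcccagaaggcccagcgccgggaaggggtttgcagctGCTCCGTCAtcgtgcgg
The windows of PSMC6 and PSMG4 held no match, and neither did that of PSMD11; that says only that these letters are not in these windows. PSMD3 held the element core 37 bases before its start and again 34 bases after it on the other strand, and CCAAT 217 bases before it on the other strand.

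The base composition of the transcripts moved with the changes. Across the 41 genes, the log2 fold change at day 5 and the GC content of the transcript had a Spearman correlation of -0.42 and a Pearson correlation of -0.43; over 10417 tested protein-coding features these were -0.12 and -0.092. The points share the same 6 libraries, genes are not independent replicates, and no p is given. The 10 genes of lowest GC content (36.8% to 42.1%) had a median log2 fold change of -0.44 at day 5, and the next 3 groups of 10 or 11 genes had -1.68, -1.53 and -1.82. PSMC6 had the lowest GC content of all, at 36.8%. PSMA2, PSMA3, PSMA4, PSMD10 and PSMC2 were in the same group of 10, and of these PSMC2 was called lower, at -0.57. The same group held PSMA5, PSMD5, PSMD12 and PSME4, which fell, at -1.44, -1.41, -2.34 and -1.57. PSMG4 was called higher at 54.4%. The part of base composition in these differences was not tested. Correlations with coding length were -0.37 and -0.34 over the 41 genes and -0.20 and -0.21 over all protein-coding features.

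Genes around the proteasome gave a setting for these values. Of 12 other subunits and partners, 10 were lower and 1 higher at day 5, with a median log2 fold change of -1.38, against 69.8% and 7.73% of all features. After rescaling 4 were lower and 2, SEM1 and POMP, higher, with a median of -0.21, against 26.9% and 27.5%. The 1 higher on the deposited scale was SEM1, the small subunit of the lid, with 288, 315 and 308 TPM in untreated cells and 561, 499 and 587 TPM at day 5, a log2 fold change of 0.85 (standard error 0.0864, adjusted p = 5.16e-07, limma). With SEM1, the lid too had a member that rose. POMP, the factor that matures the core and works on the beta ring, had 72.2, 82.05 and 73.99 TPM and 103, 100.2 and 105 TPM, with 0.43 (adjusted p = 0.00102), under the size required. ADRM1, a ubiquitin receptor of the base, fell to 23.7% of its untreated mean and UCHL5, the ubiquitin hydrolase bound to it, to 15.1%, the lowest of these 12.

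The immunoproteasome subunits, which replace the catalytic beta subunits in immune cells, were lower too. PSMB8 went from 87.8 ± 3.11 to 25.3 ± 2.54 TPM (SD, n = 3), PSMB9 from 32.6 ± 2.02 to 10.6 ± 1.73 TPM and PSMB10 from 33.3 ± 6.53 to 18.1 ± 1.90 TPM. With the activator genes PSME1 and PSME2, 5 of 5 were lower at day 5, against 69.8% of all features, and PSME2 had the largest fall, at -1.87, while PSMB10 had the smallest, at -0.83. After rescaling, PSMB8 and PSME2 were still lower, at -0.56 and -0.65, and the other 3 were not called, with PSMB10 at 0.35. At day 2, 1 of these 5 was lower on the deposited scale and 7 of 7 constitutive beta subunits, against 23.2% of all features. After rescaling these were 1 of 5 and 2 of 7, against 11.4%. The difference between the lists was not tested.

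NFE2L1, the membrane-bound transcription factor of proteasome genes, which is itself N-glycosylated, had 27.7, 34.2 and 28.8 TPM in untreated cells and 17.7, 16.4 and 20.4 TPM at day 5, a log2 fold change of -0.71 (standard error 0.177, adjusted p = 0.00204, limma). DDI2, the protease that releases it, had 9.96, 10.3 and 8.45 TPM and 1.56, 2.05 and 3.67 TPM, with -1.67 (standard error 0.192, adjusted p = 1.81e-06). Of 6 genes, NFE2L1 and 5 that process it, 5 were lower at day 5, against 69.8% of all features, and NGLY1, which removes its glycans, was not called, at -0.23. After rescaling 4 were lower, DDI2 among them at -0.69, NFE2L1 was not called, at 0.47, and NGLY1 was higher, at 0.97. These are transcript levels, and the activity of the factor was not measured. Of 11 genes for ubiquitin, its activating enzymes and shuttle proteins, 8 were lower and 0 higher on the deposited scale, against 69.8% and 7.73%, and 6 were lower and 3 higher after rescaling, against 26.9% and 27.5%.

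The comparison complexes had their own exceptions. Of 9 COP9 signalosome genes, 6 were lower and 2 higher at day 5, from -2.10 (COPS6) to 0.63 (COPS2). Of 13 eIF3 genes, 12 were lower and 1 higher, from -2.30 (EIF3B) to 1.34 (EIF3E), and of 8 CCT genes, 7 were lower and 0 higher, from -2.98 (TCP1) to -0.44 (CCT2). Their medians were -1.16, -1.53 and -1.65, beside -1.57 for the proteasome genes and -0.99 for all features, of which 69.8% were lower and 7.73% higher. After rescaling, 4 COP9 genes were lower and 3 higher, 5 eIF3 genes lower and 1 higher, and 4 CCT genes lower and 1 higher, against 26.9% and 27.5%.

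Pseudogenes can take reads from subunit genes of like sequence. Of 35 proteasome pseudogenes in the table, 11 were listed above 0 in any library and 1, PSMC1P1, passed the filter, with a mean of 13.9 TPM in untreated cells and 5.45 TPM at day 5, so the level of PSMC1, at 203 and 72.01 TPM, is uncertain to about that extent.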

How the data were processed

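The labels describe total RNA, 200 ng per sample, sequenced in paired-end mode from MM1S cells. The submitters' processing notes name FastQC, Trimmomatic, STAR, Salmon and the build hg38, without versions; the annotation is not given in the sources used here. The authors deposited 1 table of log2 values of TPM plus 1 for 59276 features listed by symbol. No count was available, so no count model was used.

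Groups came from the labelled time points, with 3 libraries each. Features with at least 1 TPM in at least 3 libraries were kept (11939). They were tested on the deposited log2 scale with limma 3.58.1 in R 4.3.3, in 1 fit of all 4 groups with a mean-variance trend, and p-values were adjusted by the Benjamini-Hochberg method over all tested features in each comparison. Tests were two-sided. Rescaling used the 5433 features with a mean of at least 10 TPM. On simulated data for day 5 against day 0 (11939 features), 191 of 200 changed features and 7 unchanged ones were called. Each changed feature was moved by more than the size required for a call, and the others had no shift. The measured median over all tested features was -0.99 at day 5, so these counts need not hold for the measured data. TPM values and within-library ratios were computed with pandas 2.3.3 and drawn with matplotlib 3.10.9. Gene positions, lengths and GC content came from GENCODE 29 and promoters from RefSeq.

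The genes and the comparison lists were chosen with earlier results of these data known, so lists are described by counts and medians without a test. Full values were given for the catalytic subunits, the lowest and the highest gene of each subcomplex at day 5, genes called higher on any day, genes called in opposite directions on the 2 scales and genes that failed the filter; other genes of the 41 are given in less detail, and PSMD7 and PSMD14 were singled out after their values were seen. In the comparison lists, the lowest and highest genes at day 5 and NFE2L1, DDI2, POMP, SEM1, ADRM1 and the immunoproteasome subunits were named. Alternatives were no filter, a minimum of 5 TPM, a pseudocount of 0.1, rescaling, leaving out ribosomal protein and mitochondrial features, fits of 2 groups, no trend, a fold change threshold of 1 and leaving out each library in turn.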

Additional observations from a re-analysis of the deposited data

Results flagged for a closer look

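Each treated day was compared with the same untreated libraries, so the difference between days was tested directly. At day 5 against day 2, a comparison added after the data were seen, 33 of the 41 tested genes were lower and 4 higher by limma's test, against 69.8% and 4.35% of all features. After rescaling, 9 were lower and 8 higher, against 18.1% (2159) and 2265 of the 11939 features.

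On the deposited scale, for 3 genes of those 4, the change against untreated cells also turned its sign between the 2 days. PSMA4 was at -0.41 at day 2 and 0.20 at day 5, and its log2 fold change between those days was 0.61. PSMA6 was at -0.31 and 0.27, with 0.59 between them. PSMC6 was at -0.30 and 0.66, with 0.96 between them. In all 3 genes each day 5 library lay above each day 2 library. The genes were picked by their calls in these same libraries, and how many of all tested features separated in this way was not counted.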

How the results depend on the processing

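Scaling was the choice that changed most calls. With rescaling, the genes lower numbered 12 at day 2, 15 at day 3 and 14 at day 5, those higher 7 at day 3 and 8 at day 5; from day 2 to day 3 there were 8 lower and 9 higher, and from day 3 to day 5 there were 0 lower and 5 higher. Rescaled values turned positive for PSMA1 at day 5 (0.0031), PSMA3 (0.54 at day 3, 1.05 at day 5), PSMC2 (0.50, 0.65), PSMD6 (0.35, 0.30), PSMD10 (0.69, 0.85) and PSMD13 (0.037, 0.0040). Without ribosomal protein and mitochondrial features, 17 were lower at day 2, 4 higher at day 3 and 6 higher at day 5, with 13 lower and 7 higher from day 2 to day 3 and 0 lower and 1 higher from day 3 to day 5; PSMA3 (0.14, 0.55), PSMC2 (0.11, 0.14) and PSMD10 (0.32, 0.38) turned positive at day 3 and day 5. The summed TPM of the genes on days 0, 2, 3 and 5 was 4416, 3386, 4237 and 4872 with rescaling and 10778, 7801, 7866 and 8333 without those features. By construction, rescaling divides all genes of a library by 1 factor and leaves the share each takes of that library unchanged. Leaving out the ribosomal protein and mitochondrial features does change that share.

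A threshold of 1 gave 1 lower at day 2, 0 higher at day 5, 10 lower from day 2 to day 3 and 0 lower from day 3 to day 5. From day 3 to day 5, 5 were lower without a filter and 5 in a fit of only the 2 groups; the cause was not tested. Without a filter, limma warned that most residual variances were 0. A pseudocount of 0.1 gave 1 higher from day 2 to day 3.

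With 1 library left out, the genes lower numbered 2 to 14 from day 3 to day 5 and those higher 0 to 1, and 0 to 2 were higher from day 2 to day 3. The extremes were 2 lower without replicate 2 of day 3 or replicate 1 of day 5 and 14 without replicate 3 of day 5. PSMA2 at day 3 lay between -0.021 and 0.042; it was -0.013, -0.0051 and -0.021 without replicate 1 of day 0 and replicates 1 and 3 of day 3. At day 2, calls were lost for PSMD8 (-0.50 without replicate 1 of day 0), PSMG2 (-0.50 without replicate 3 of day 0, -0.46 without replicate 2 of day 2) and PSMD13 (-0.50 without replicate 2 of day 2), and gained for PSMD5 (-0.74) and PSMF1 (-0.53) without replicate 1 of day 2. Of 1476 single-gene values with 1 library left out, 1463 kept direction and call. All 123 single-gene values kept both with no filter, a minimum of 5 TPM, a pseudocount of 0.1, fits of 2 groups and no trend.

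No paired analysis was possible because the labels give no replicate numbers; the numbers used here only name libraries. TPM values carry no depth, so precision rests on 3 libraries per group.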
